A study of Mus musculus with 4 samples.

Results

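The Polycomb complex subunits described here are 10 genes chosen by symbol: *Ezh1*, *Ezh2*, *Eed*, *Suz12*, *Jarid2* and *Mtf2* of Polycomb repressive complex 2 (PRC2), and *Ring1*, *Rnf2*, *Cbx7* and *Kdm2b* of Polycomb repressive complex 1 (PRC1). Each of the 10 was found in exactly 1 of the 19645 features listed for every library. The series holds 4 libraries of total RNA, depleted of ribosomal RNA, from undifferentiated mouse embryonic stem cells (ESCs). They comprised 2 libraries of wild-type (WT) cells and 2 of *Bmal1* KO cells made with CRISPR-Cas9. Per the study's methods, the KO line is a single clone with a frameshift deletion in *Arntl*, the gene of the clock transcription factor BMAL1, and ESCs were kept on gelatin in serum with LIF. The study describes the libraries as biological duplicates, but no clone or culture is given per library, and the p-values measure only the spread between these libraries. Expression was given as FPKM (fragments scaled for transcript length and for the number of mapped fragments), from which neither read number nor depth can be recovered, so precision was judged from the replicates alone.

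Polycomb proteins keep developmental genes silent until they are needed. PRC2 methylates lysine 27 of histone H3 through EZH2 or its paralog EZH1, which work only when assembled with EED, the subunit that binds the methylated mark, and with the scaffold SUZ12. PRC1 attaches ubiquitin to histone H2A through the ligase RNF2 (RING1B) or its paralog RING1. In ESCs PRC1 and PRC2 together occupy many promoters of lineage regulators that also carry methylation of lysine 4 of histone H3, known as bivalent promoters. The comparison asks whether the RNA of these subunits differed between *Bmal1* KO and WT ESCs, and how the rest of the pathway and its usual targets stood beside them.

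To show the sequence upstream of the PRC2 core, the RefSeq promoter windows (GRCm38.p6, 250 bases before to 50 bases after the annotated start) of *Ezh2*, *Eed* and *Suz12* are printed, with that of *Phf19*, the PRC2 gene described below that rose in KO. Capitals mark any match, on either strand, to 5 short motifs: the E-box CACGTG, known as the binding sequence of BMAL1 with its partner CLOCK, the related CACGTT and CACCTG, and the E2F-type sequences TTTCCCGC and TTTGGCGC.
*Ezh2*, chr6:47594981-47595280, minus strand: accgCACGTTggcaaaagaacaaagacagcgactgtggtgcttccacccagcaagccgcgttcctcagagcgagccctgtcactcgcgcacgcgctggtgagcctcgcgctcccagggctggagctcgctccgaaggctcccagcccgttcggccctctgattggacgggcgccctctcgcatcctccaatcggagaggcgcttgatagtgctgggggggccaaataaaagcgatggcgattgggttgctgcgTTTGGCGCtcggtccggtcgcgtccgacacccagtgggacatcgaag
*Eed*, chr7:89980927-89981226, minus strand: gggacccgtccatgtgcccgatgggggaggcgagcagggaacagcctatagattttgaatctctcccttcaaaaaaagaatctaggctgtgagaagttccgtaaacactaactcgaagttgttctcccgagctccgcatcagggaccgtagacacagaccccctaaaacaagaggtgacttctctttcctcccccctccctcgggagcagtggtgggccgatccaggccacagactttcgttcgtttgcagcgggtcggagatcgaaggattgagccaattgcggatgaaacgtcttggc
*Suz12*, chr11:79992856-79993155, plus strand: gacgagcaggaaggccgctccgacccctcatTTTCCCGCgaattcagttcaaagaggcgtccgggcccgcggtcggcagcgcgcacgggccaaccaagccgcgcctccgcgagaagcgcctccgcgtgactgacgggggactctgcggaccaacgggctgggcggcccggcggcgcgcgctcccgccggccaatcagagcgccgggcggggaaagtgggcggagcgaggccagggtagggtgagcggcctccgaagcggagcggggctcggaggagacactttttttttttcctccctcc
*Phf19*, chr2:34913927-34914226, minus strand: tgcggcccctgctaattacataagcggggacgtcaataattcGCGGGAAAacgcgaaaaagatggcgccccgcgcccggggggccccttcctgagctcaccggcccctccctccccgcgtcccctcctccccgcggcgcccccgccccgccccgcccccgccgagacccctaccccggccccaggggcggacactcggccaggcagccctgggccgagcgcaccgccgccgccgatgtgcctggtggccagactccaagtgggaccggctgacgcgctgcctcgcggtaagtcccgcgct

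All 10 subunit genes matched this table by symbol, with 15 windows among them. The E-box CACGTG lay in 0 of these 15 windows, against 7.15% of all 32851 windows. CACGTT lay in 1 of the 15, that of *Ezh2*, against 4.68% of all windows, and CACCTG in 1, that of *Ezh1*, against 20.2%. TTTCCCGC was found at *Suz12* (1.07% of all windows) and TTTGGCGC at *Ezh2* (0.514%), again 1 window each. The *Phf19* window holds GCGGGAAA, the reverse complement of TTTCCCGC, beginning at base 43, and the *Suz12* window holds TTTCCCGC from base 32, counted from the 5′ end of the window. These matches describe letters in a 300-base window and not binding. The 15 windows had a median GC content of 64.3% and a median of 30 CpG dinucleotides, against 52.7% and 7 over all windows.

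The libraries, the targeted gene and the identity of the cells were checked first. Features without a symbol held 26.8% and 37.3% of all FPKM in WT and 18.965% and 18.1% in KO, while the median feature had 2.32 FPKM in each WT library against 2.46 and 2.41 in KO. The part of this difference in the results was not tested beyond the rescaling given below. *Arntl* had 6.05 and 6.29 FPKM in WT and 5.95 and 5.92 in KO (values of 2 libraries are given here and below as replicate 1, then replicate 2). Its RNA level therefore did not differ by label (log2 fold change -0.06, limma adjusted p = 0.7503) and checks nothing about a small deletion inside the gene. *Pou5f1*, *Nanog* and *Sox2*, the core factors of pluripotency, had at least 1389, 179 and 238 FPKM in every library, and the 12 ESC markers summed to 7152 to 7341 FPKM in WT and 6552 to 6989 in KO. The *Sox2* feature spans 117714 bases where the gene spans 2057 and is overlapped by *Sox2ot*, so part of its value may come from a neighbour. *Tfcp2l1* was higher in KO while *Klf4*, *Tdgf1* and *Utf1* were lower, at changes between -0.46 and 0.39 on the log2 scale. These 4 of the 12 ESC markers passed the test described below (33.3%, against 12.5% of all tested features). Of the 12 markers, 9 had negative and 3 positive log2 fold changes, with a median of -0.20. Over the 14 alternatives *Klf4* passed in 13, *Tfcp2l1* in 10, and *Tdgf1* and *Utf1* in 8 each, with adjusted p up to 0.159. Leaving out 1 library ended the call of *Tdgf1* and *Tfcp2l1* for WT replicate 2 and for either KO library (adjusted p 0.0629 to 0.123), and that of *Utf1* for WT replicate 1 (0.0806) or KO replicate 2 (0.140). Fibroblast markers summed to 8.17 to 9.35 FPKM in WT and 12.0 to 12.8 in KO, almost all of it from *Fbln1* and *Thy1*. *Col1a1*, *Col1a2*, *Col3a1*, *Dcn* and *Pdgfra* stayed under the expression minimum, 3 of the 10 were not listed, and *Fbln1* passed the test, higher in KO, though not without WT replicate 2 or either KO library (adjusted p 0.0766 to 0.134). Extraembryonic endoderm markers summed to 9.78 to 10.5 FPKM in WT and 9.20 to 9.44 in KO, mostly *Lama1*, with 0 of 2 tested genes passing and 7 under the minimum, and trophoblast markers to 31.1 to 35.4 and 32.6 to 33.4, with *Ascl2* and *Tfap2c* among the 4 tested passing, both higher in KO, *Ascl2* not without KO replicate 2 (adjusted p = 0.0634). The 2 trophoblast markers that passed were 50% of those tested, against 12.5% of all tested features. The other 2 tested trophoblast markers had negative log2 fold changes, down to -0.36. The log2 fold change of *Ascl2* was 1.65, and 0.84 with a pseudocount of 1. In bulk RNA, fewer cells of a type and less RNA per cell cannot be told apart. The genotypes also differed on chromosome Y: *Uty* had 0.110 and 0.0965 FPKM in WT and 3.58 and 5.16 in KO, and *Ddx3y* and *Eif2s3y* reached at most 2.04 FPKM in WT and at least 16.4 in KO, whereas *Kdm5d* reached at most 0.0168 FPKM. With 1 KO line and these Y-linked differences, the effect of genotype and that of the culture or line cannot be told apart.

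For the genotype comparison, 0.1 was added to each FPKM, log2 values were compared with limma over the 12990 features that averaged 0.5 FPKM or more, and p-values were adjusted by the Benjamini-Hochberg method over all of them. A feature passed at an adjusted p under 0.05. Every adjusted p below comes from this limma test. All 10 Polycomb genes were well above the expression minimum, and 0 of the 10 passed, against 12.5% of all tested features. None of the 10 had an unadjusted p under 0.05 either. Their log2 fold changes ran from -0.19 to 0.10 with a median of 0.01, beside a median of -0.02 over all tested features, with 5 of the 10 positive and 5 negative. The 95% intervals of the 10 genes together reached from -0.42 to 0.44 on the log2 scale, that is 1.34-fold lower to 1.35-fold higher in KO.

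**Figure D1:**
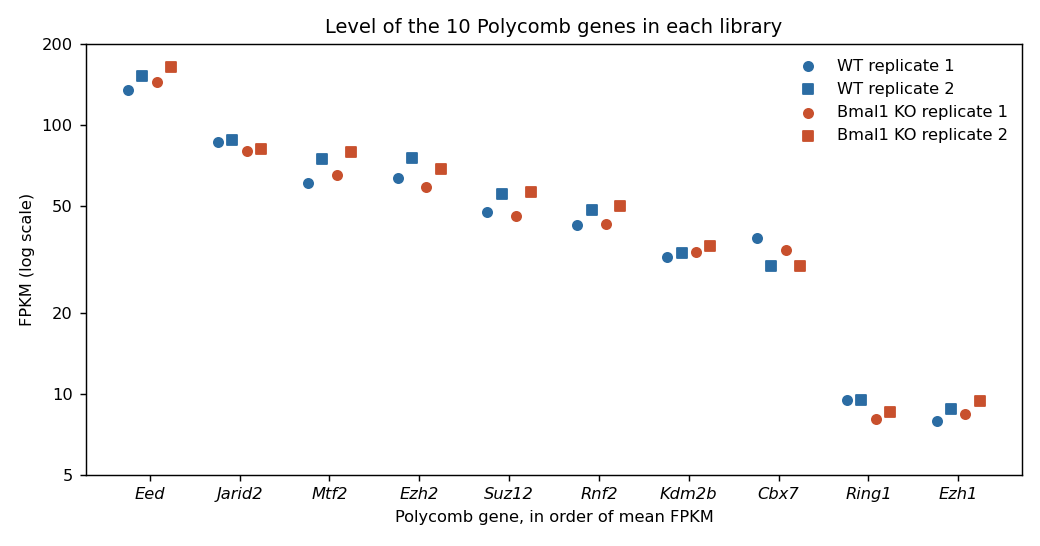
FPKM (log scale) of the 10 Polycomb genes in each of the 4 libraries, with WT in blue, *Bmal1* KO in orange, replicate 1 as circles and replicate 2 as squares. The genes span 7.93 FPKM (*Ezh1*) to 164 FPKM (*Eed*), and for 9 of the 10 the squares lie above the circles in both genotypes.

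As FPKM is scaled by transcript length, the levels of the genes could be ordered. *Eed* was the highest at 135 to 164 FPKM, above 94.7% of tested features by its mean, followed by *Jarid2* at 79.7 to 87.8 FPKM. *Mtf2* and *Ezh2* came next and their ranges over the 4 libraries overlapped, as did those of *Suz12* and *Rnf2*, and of *Kdm2b* and *Cbx7*. *Ring1* and *Ezh1* overlapped at the low end, at means of 8.89 and 8.64 FPKM, each near the middle of the tested features (above 49.6% and 49.0% of them). Hence in both complexes 1 of the paralogous enzymes was abundant and the other was not.

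Among the PRC2 enzymes, *Ezh2* (chromosome 6 from 47530274 to 47595369), the main methyltransferase of proliferating cells, had 63.4 and 75.2 FPKM in WT against 58.9 and 68.3 in KO. The libraries overlapped between genotypes, and replicate 2 exceeded replicate 1 in each. The log2 fold change was -0.12 (standard error, SE, 0.12, adjusted p = 0.532). *Ezh1* (chromosome 11 from 101191114 to 101226463), the paralog that predominates in resting cells, had 7.93 and 8.80 FPKM in WT and 8.42 and 9.42 in KO. It overlapped as well, with a log2 fold change of 0.09 (SE 0.11, adjusted p = 0.634). Genes of proliferation, with which *Ezh2* is known to rise and fall, showed 0 of 12 passing, led by *Mcm5* at -0.24 (adjusted p = 0.0896), and summed to 1796 and 1888 FPKM in WT and 1710 and 1799 in KO.

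The ratio of *Ezh2* to *Ezh1* within a library, which does not depend on library scaling, was 7.995 and 8.54 in WT and 6.997 and 7.25 in KO. *Ezh2* thus made up 88.9% and 89.5% of the summed FPKM of both enzymes in WT and 87.5% and 87.9% in KO. Both KO ratios lay below both WT ratios, by 0.21 on the log2 scale. For the PRC1 ligases, the ratio of *Rnf2* to *Ring1* was 4.48 and 5.10 in WT and 5.32 and 5.85 in KO, 0.22 higher in KO on the log2 scale, and again without overlap. With 2 libraries against 2, the two-sided exact permutation test gave p = 0.333 for each ratio (0.333 after adjustment over both), the smallest value it can give, so the test could not have passed and says nothing for or against a shift. Each shift, between means of 2 libraries, was larger than the difference between single replicates in either genotype. That describes these libraries and is no test. For comparison, 58.8% of all tested features did not overlap between genotypes, and no such share was computed for ratios.

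The remaining core subunits of PRC2 were, like *Ezh2*, higher in replicate 2 than in replicate 1 in both genotypes, and their genotypes overlapped. *Eed* (chromosome 7 from 89954654 to 89981253) had 135 and 153 FPKM in WT and 145 and 164 in KO, a log2 fold change of 0.10 (SE 0.10, adjusted p = 0.536). *Suz12* (chromosome 11 from 79993106 to 80034123) had 47.6 and 55.3 FPKM in WT and 45.9 and 56.5 in KO, a log2 fold change of -0.01 (SE 0.13, adjusted p = 0.963). The WT values of *Suz12* lay inside the range of the KO values, the smallest genotype difference of the 10 genes.

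Of the accessory subunits that bring PRC2 to chromatin, *Jarid2* (chromosome 13 from 44729826 to 44921643), a Jumonji-family protein without demethylase activity, had 86.5 and 87.8 FPKM in WT and 79.7 and 81.5 in KO. Both KO libraries lay below both WT libraries. With a log2 fold change of -0.11 (SE 0.07, adjusted p = 0.332) it did not pass. *Mtf2* (chromosome 5 from 108060610 to 108115240), a Polycomb-like protein that binds unmethylated CpG-rich DNA, had 61.0 and 74.4 FPKM in WT and 65.3 and 79.6 in KO, with a log2 fold change of 0.10 (SE 0.14, adjusted p = 0.673). Of the 9 genes that were higher in replicate 2, it differed most between the WT replicates. The *Mtf2* feature extends 5064 and 6236 bases past the ends of the gene in GENCODE, and overlaps *Tmed5*, so part of its value may come from a neighbour.

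In PRC1, *Rnf2* (chromosome 1 from 151469406 to 151500823), the main ligase of ESCs, had 42.4 and 48.5 FPKM in WT and 42.8 and 50.1 in KO, a log2 fold change of 0.03 (SE 0.11, adjusted p = 0.881). The genotypes overlapped throughout. *Ring1* (chromosome 17 from 34020792 to 34024680) had 9.46 and 9.51 FPKM in WT and 8.04 and 8.56 in KO. It was lower in both KO libraries and had the largest log2 fold change of the 10 genes in absolute size, -0.19 (SE 0.09, adjusted p = 0.239), without passing the test.

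*Cbx7* (chromosome 15 from 79915807 to 79932646), the chromodomain subunit that reads methylated lysine 27 in ESCs, had 37.9 and 29.9 FPKM in WT and 34.3 and 29.96 in KO. It was the only one of the 10 genes that was lower in replicate 2 than in replicate 1, in both genotypes, and its log2 fold change was -0.07 (SE 0.14, adjusted p = 0.758). *Kdm2b* (chromosome 5 from 122870675 to 122989099), whose CXXC domain brings a variant PRC1 to CpG islands, had 32.3 and 33.5 FPKM in WT and 33.7 and 35.3 in KO. Both KO values lay above both WT values, by a log2 fold change of 0.07 (SE 0.08, adjusted p = 0.598). *Rnf2*, *Cbx7* and *Kdm2b* each overlap another protein-coding gene in the annotation (*Trmt1l*, *Apobec3* and *Rnf34*). The *Rnf2* feature starts 11402 bases inside the annotated gene, and the *Cbx7* feature ends 38473 bases short of its gene. The overlaps are between annotated genes, and whether they fall within the features was not checked. The strand setting of the authors is not given in the sources used here, so reads of overlapping genes cannot be told apart. In all, *Jarid2*, *Ring1* and *Kdm2b* were the 3 of 10 genes whose genotypes did not overlap, against 58.8% of all tested features.

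**Figure D2:**
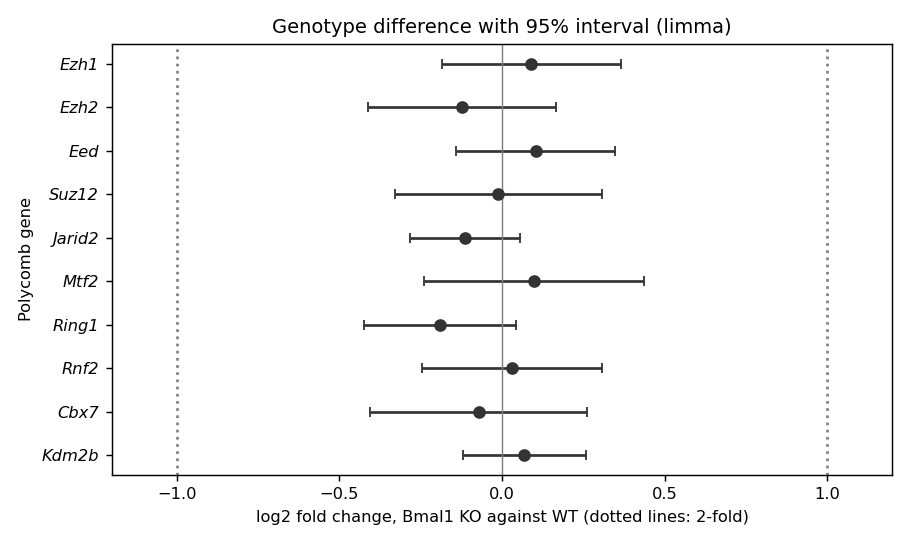
Log2 fold change of *Bmal1* KO against WT for each of the 10 Polycomb genes (points) with the 95% interval from limma (bars, 2 libraries per genotype), and dotted lines at a 2-fold change. Every interval includes 0, and together they reach from -0.42 to 0.44.

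The 10 genes also differed between replicates. In 9 of them replicate 2 was higher than replicate 1 in both WT and KO, and in 1, *Cbx7*, it was lower in both. Among all tested features, 33.9% were higher in replicate 2 in both genotypes. The median difference of replicate 2 from replicate 1 was 0.16 in WT and 0.17 in KO on the log2 scale, where all tested features had medians of 0.00 and -0.02. In 7 of the 10 genes the genotype difference was smaller than the replicate difference in WT and also than that in KO. *Jarid2*, *Ring1* and *Kdm2b*, the other 3, were those without overlap. The measures are unlike, as the genotype difference is between means of 2 libraries and the replicate difference between single libraries, which vary more. The share of all tested features with this order was not computed, so the count only describes the 10 genes. *Mtf2* differed by 0.29 between replicates in WT and by 0.29 in KO, *Ezh2* by 0.25 and 0.21, and *Suz12* by 0.22 and 0.30. The labels do not say what the replicate number stands for, and its part in these values was not tested.

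**Figure D3:**
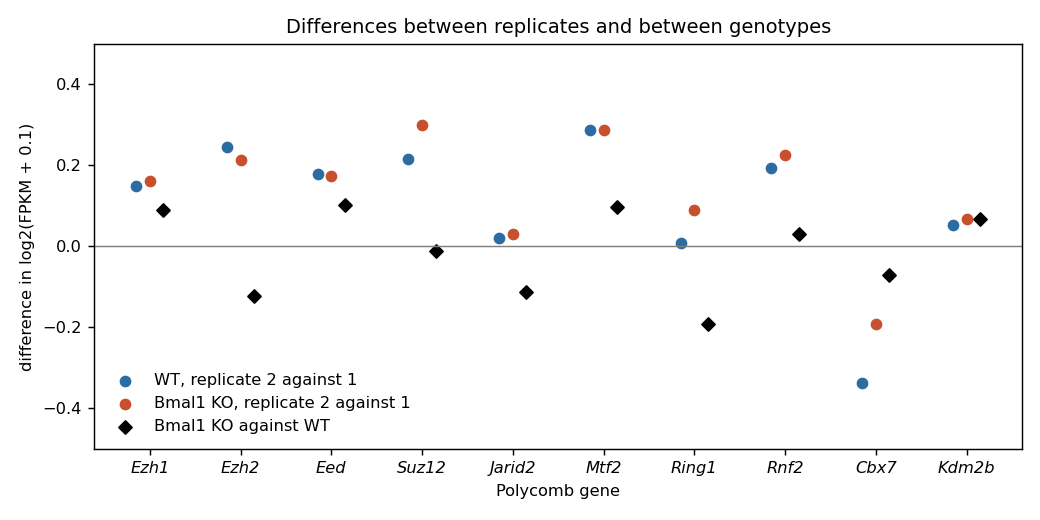
Difference in log2(FPKM + 0.1) of replicate 2 against replicate 1 in WT (blue) and in *Bmal1* KO (orange), and of KO against WT (black diamonds), for the 10 Polycomb genes. The blue and orange points lie on the same side of 0 for each gene, above it for 9 of them, and the diamond lies nearer to 0 than both for 7 of the 10. Diamonds compare means of 2 libraries, and the other points compare single libraries.

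The other subunits of both complexes and the enzymes that oppose them were then examined as lists of textbook members. Of 71 such genes, 65 were tested, 5 were under the expression minimum and *Ezhip* was not found under that symbol, the only one searched for it. 6 of the 65 passed (9.23%, against 12.5% of all features), 3 higher in KO (6.85% of all features were) and 3 lower (5.60% of all features were). Their median log2 fold change was 0.01. Over all 12990 tested features 890 passed as higher and 728 as lower. When FPKM was rescaled to features with a symbol, only 11943 such features were tested, and 1407 passed as higher and 667 as lower.

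The PRC2 genes that passed were accessory subunits. Among 8 tested subunits other than the ones described above, 3 passed (37.5%, against 12.5% of all tested features). Of these *Phf19* rose, and *Epop* and *Lcor* fell. The other 5 of the 8 did not pass, nor did the accessory subunits *Jarid2* and *Mtf2* above. *Phf19* (chromosome 2 from 34893755 to 34914340), a Polycomb-like paralog of *Mtf2* known to read methylated lysine 36 of histone H3, had 2.50 and 2.28 FPKM in WT and 5.40 and 5.48 in KO. That was a 2.23-fold rise (log2 fold change 1.16, SE 0.12, adjusted p = 0.00629), the only one of these 8 past 2-fold with an adjusted p under 0.05, a combination that 4.14% of all features met. With a pseudocount of 1 it still passed, at a log2 fold change of 0.93, which is under 2-fold. Even so, *Phf19* stayed well below *Mtf2*, at a mean of 5.44 FPKM against 72.5 in KO. *Epop* (chromosome 11 from 97627376 to 97631292, listed under its older symbol E130012A19Rik), which links PRC2 to the Elongin B and C proteins, was the most abundant PRC2 gene measured. Its level was 515 and 431 FPKM in WT and 290 and 254 in KO, a 1.73-fold fall (log2 fold change -0.79, SE 0.12, adjusted p = 0.0136). The *Epop* feature spans 3917 bases where the annotated gene spans 2314. *Lcor* (chromosome 19 from 41481499 to 41589520), whose locus also encodes the PRC2 partner PALI1, had 5.57 and 5.94 FPKM in WT and 3.97 and 3.66 in KO (log2 fold change -0.58, SE 0.12, adjusted p = 0.0310). *Lcor* did not pass without WT replicate 2 (adjusted p = 0.0678) or without KO replicate 2 (0.0792), and its adjusted p ranged from 0.0159 to 0.0792 over all alternatives. The histone chaperones *Rbbp4* and *Rbbp7*, part of every PRC2, had log2 fold changes of 0.03 and -0.11, although the *Rbbp7* feature is 945365 bases long and so covers more than this gene.

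Canonical PRC1, which carries a CBX and a PHC protein, had 0 of 8 tested genes passing. The smallest p belonged to *Cbx6*, at a log2 fold change of 0.44 (adjusted p = 0.0718), in a feature merged with *Npcd* and *Nptxr*. *Phc1* had 104 and 91.0 FPKM in WT and 103 and 91.8 in KO, and *Pcgf2*, which lies close to *Epop* on chromosome 11, had 39.2 and 33.8 in WT and 47.3 and 42.0 in KO (log2 fold change 0.29, adjusted p = 0.139). Genes under the expression minimum included *Cbx8*, *Scml2* and *Scml4*.

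Of the 20 variant PRC1 genes tested, *Pcgf1* was higher and *Tfdp1* lower in KO. *Pcgf1* (chromosome 6 from 83077736 to 83080935), the partner of KDM2B and BCOR in a variant PRC1, had 8.12 and 6.47 FPKM in WT and 14.0 and 13.9 in KO (1.91-fold, log2 fold change 0.94, SE 0.13, adjusted p = 0.0115). It lies in the stretch of chromosome 6 from *Eif2ak3* to *Gata2*. There 97 of 102 tested features with a symbol were higher in KO, with a median log2 fold change of 0.88. Over all tested features, with or without a symbol, 6081 of 12990 had a positive log2 fold change. The stretch includes *Pcgf1*, and its ends were set with these data known, so the count describes it and is no test. Of the 20 tested features with a symbol that flank *Pcgf1*, 10 on each side in order of position, 19 were higher, with a median of 0.92. *Ezh2*, on the same chromosome, lies outside that stretch. *Tfdp1* (chromosome 8 from 13338751 to 13378448), the dimerisation partner of E2F factors, had 162 and 165 FPKM in WT and 124 and 132 in KO (log2 fold change -0.35, SE 0.07, adjusted p = 0.0334). It did not pass when any of the 4 libraries was left out, when its adjusted p was 0.0534 to 0.135, and it ranged from 0.00516 to 0.135 over all alternatives. *Bcor*, on chromosome X, had 8.67 and 8.15 FPKM in WT and 6.56 and 6.36 in KO without passing (adjusted p = 0.0656).

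**Figure D4:**
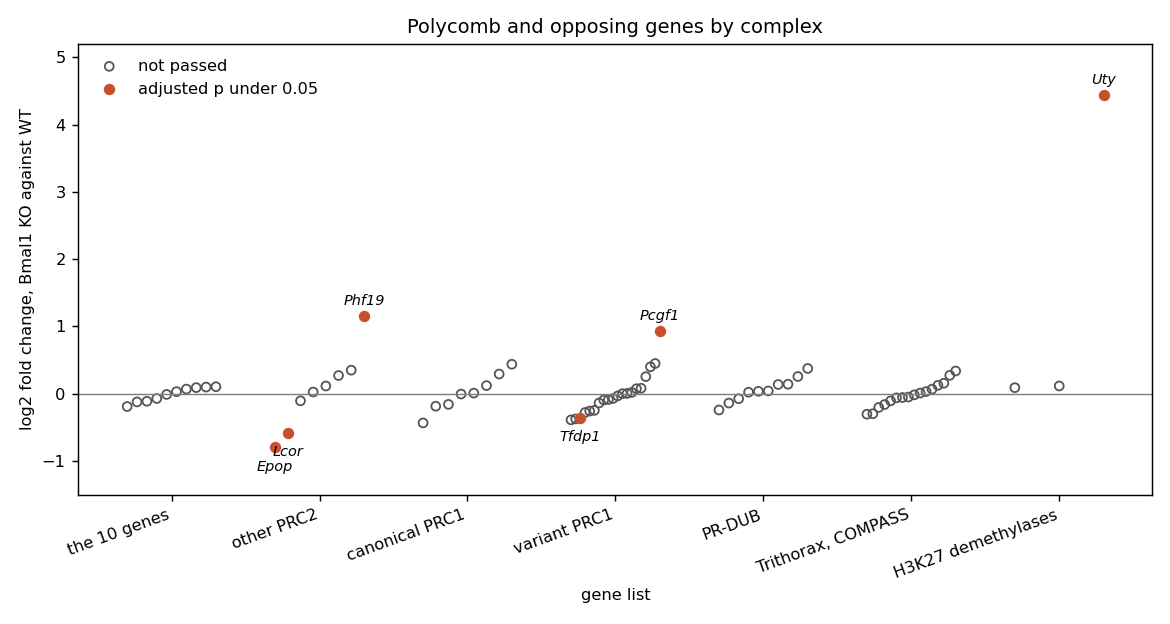
Log2 fold change of *Bmal1* KO against WT for each tested gene, by list, with filled points for an adjusted p under 0.05 (limma) and open points for the rest. The 10 Polycomb genes lie between -0.19 and 0.10, and the filled points are *Phf19*, *Epop*, *Lcor*, *Pcgf1*, *Tfdp1* and *Uty*.

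Among the opposing enzymes 1 gene passed. Of the demethylases of lysine 27, *Kdm6a* on chromosome X had 10.5 and 11.5 FPKM in WT and 11.3 and 12.1 in KO (log2 fold change 0.09, SE 0.10, adjusted p = 0.586), and *Kdm6b* did not pass (0.11, adjusted p = 0.685). *Uty*, the Y-linked copy of *Kdm6a*, passed (log2 fold change 4.44, SE 0.27, adjusted p = 0.00169), along with the other Y-linked genes given above. Its sequence is shared in part with *Kdm6a*, so the split of reads between them is uncertain. In PR-DUB, the complex around BAP1 that removes ubiquitin from H2A, 0 of 10 genes passed, and the smallest p was that of *Asxl2* (log2 fold change 0.38, adjusted p = 0.0892). Trithorax and COMPASS subunits, which methylate lysine 4 of histone H3, also had 0 of 16 passing, with the smallest p at *Dpy30* (log2 fold change -0.30, adjusted p = 0.121).

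Genes that Polycomb is known to silence were counted last, as 39 Hox genes and 35 other regulators with bivalent promoters or cell-cycle inhibitor function. Histone marks were not measured, so these values are RNA levels alone. Most were at or near 0: 50 of the 74 were under the expression minimum and 9 were not listed. Of the Hox genes, 28 were under the minimum and 0 of the 4 tested passed, with *Hoxb9* nearest at a log2 fold change of -0.43 (adjusted p = 0.140). Among the 35 other targets, 11 were tested and 7 passed, 3 higher and 4 lower in KO, of which 6 also changed by over 2-fold. Over all tested features 12.5% passed, 6.85% as higher and 5.60% as lower, and 4.14% passed with a change over 2-fold. A gene that is silent in 1 genotype could enter the test only through the other, so the count describes those 11 and says nothing of the list as a whole.

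*Cdkn2a* (chromosome 4 from 89274473 to 89294619), which encodes the cell-cycle inhibitors p16INK4A and p19ARF, is among the best known Polycomb targets. It had 34.5 and 29.9 FPKM in WT and 8.50 and 7.14 in KO, a 4.08-fold fall (log2 fold change -2.03, SE 0.12, adjusted p = 0.00169). Its neighbour *Cdkn2b* had 1.32 and 1.87 FPKM in WT and 1.11 and 0.630 in KO (log2 fold change -0.83, adjusted p = 0.1502). The imprinted inhibitor *Cdkn1c* (chromosome 7 from 143458336 to 143461500) went the other way, from 7.99 and 8.89 FPKM in WT to 25.4 and 25.8 in KO (3.01-fold, log2 fold change 1.59, SE 0.09, adjusted p = 0.00169).

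Of the developmental factors, *Sox1* and *Pax6*, both of the neural lineage, were higher in KO. *Sox1* had a log2 fold change of 2.34 (adjusted p = 0.00169), from a feature of 50962 bases where the gene spans 4832. The annotated *Sox1ot* overlaps the gene, so part of the value may come from a neighbour. *Pax6* had 0.466 and 0.859 FPKM in WT and 2.28 and 2.36 in KO (log2 fold change 1.72, adjusted p = 0.0198), from a feature of 368485 bases where the gene itself is far shorter. *En2*, a homeobox gene of the midbrain and hindbrain, had 6.82 and 5.39 FPKM in WT and 3.05 and 2.99 in KO, a 1.97-fold fall (adjusted p = 0.0147). *Meis2* and *Eomes* were also lower, with log2 fold changes of -2.17 and -1.73 (adjusted p = 0.00256 and 0.0154). The targets that passed thus went in both directions. *Gata4*, *Wt1* and *Cdkn2b* were among those that did not pass, and *Cdx2*, *Sox17*, *Gata6*, *Hand1* and *Foxa2* stayed under the expression minimum in this comparison.

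**Figure D5:**
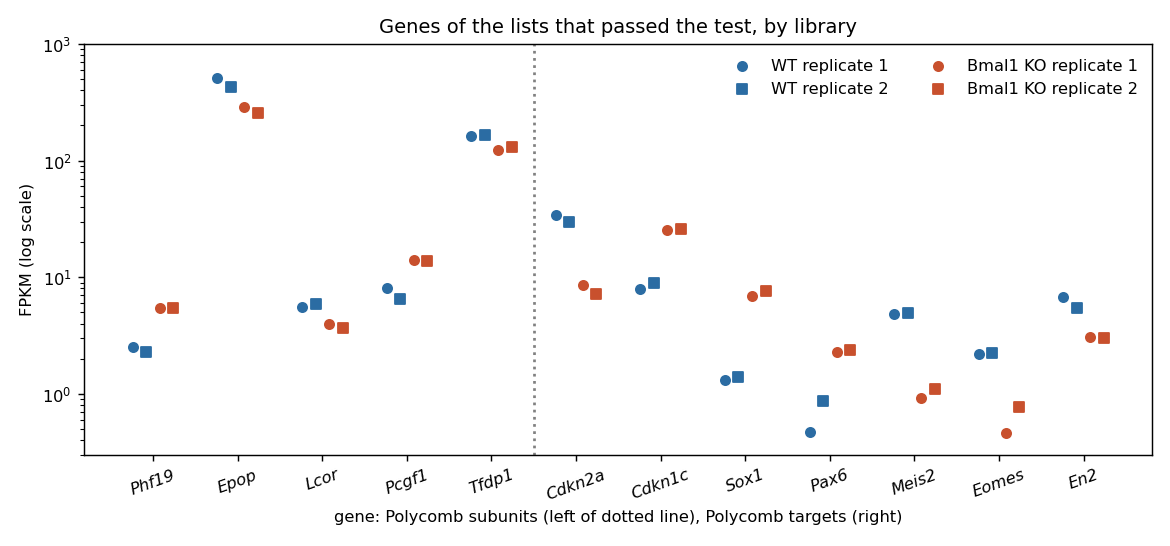
FPKM (log scale) in each of the 4 libraries for the Polycomb subunits (left of the dotted line) and Polycomb targets (right) that passed the test, with colours for genotype and symbols for replicate. *Cdkn2a* fell 4.08-fold and *Phf19* rose 2.23-fold. The genotypes do not overlap at any of the 12 genes, which follows largely from their choice by this test. Of all tested features, 58.8% did not overlap.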

How the data were processed

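Per the labels and methods, RNA was extracted with TRIzol, depleted of ribosomal RNA and sequenced. The submitters' processing notes name TopHat2 2.1.1, Bowtie2 2.3.0, Cufflinks 2.2.1 and the build GRCm38. The authors deposited FPKM values, 1 table per library and no columns of comparisons. The annotation version and strand setting are not given in the sources used here. Files count starts from 0, so 1 was added.

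Groups came from the sample titles. log2(FPKM + 0.1) was fitted with limma 3.58.1 in R 4.3.3 (variance trend, two-sided) for features with a mean of at least 0.5, and tested on simulated data first. Other steps used Python 3.11.15, pandas 2.3.3 and scipy 1.17.1. The members and lists were chosen with earlier results of these data known. Named are the 10 members, *Arntl*, and in each list the genes that passed (at most 6) or, where none did, that with the smallest p, plus *Kdm6a*, *Uty* and 3 core pluripotency genes. Genes named outside this rule, such as *Ddx3y*, *Phc1*, *Bcor* and *En2*, were chosen after their values were seen. Where a symbol had several features, that with the highest mean was used. Annotation came from GENCODE and promoters from RefSeq. In all, 10 alternatives and 4 fits without 1 library were run.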

Additional observations from a re-analysis of the deposited data

How the results depend on the processing

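None of the 10 Polycomb genes passed under any of the 14 alternatives. Over these, their adjusted p ran from 0.0549 to 0.999 and their log2 fold changes from -0.25 to 0.24. Leaving out each library in turn gave 0 of the 10 passing and a median of -0.06 to 0.12, 4 to 9 passing among the other Polycomb and opposing genes, 7 to 8 among the targets, and 1364 to 2032 over all features. Calls over 2-fold, 538 with all libraries, were then 605 to 820, the highest without WT replicate 1. A lone library is assumed there to vary like the other genotype.

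Pairing by replicate number rests on the number alone. The difference of replicate 2 from replicate 1 in WT correlated across features with that in KO (Pearson's r = 0.07, Spearman's rho = 0.39), and features are not independent replicates. With the replicate number as a block, 4052 features passed in place of 1618, and 17 of the 65 other Polycomb and opposing genes in place of 6, while 0 of the 10 members did. The lowest adjusted p was then that of *Ezh2* at 0.0549.

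Without a filter on low values 951 features passed, and with a pseudocount of 1 there were 231 calls over 2-fold. The cause was not tested. Rescaling to features with a symbol, where only those features were tested, moved the share of higher among passing features from 55.0% to 67.8%. *Tfdp1* did not pass with no filter, quantile normalization or no variance trend, *Lcor* and *Pax6* not with no filter. Of the markers, *Klf4*, *Tfcp2l1*, *Tdgf1*, *Utf1* and *Fbln1* did not pass with no variance trend, *Tdgf1*, *Utf1* and *Fbln1* with no filter, *Tdgf1* and *Utf1* with quantile normalization, and *Utf1* with median-of-ratios scaling. The ratio shifts were -0.20 and 0.20 with a pseudocount of 1. Depth is unknown.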
